A study of Mus musculus with 30 samples.

Results

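The ambulatory arm of the study compared the soleus of mice with a skeletal muscle deletion of alpha1 and alpha2, the catalytic subunits of the AMP-activated protein kinase AMPK (mKO), with that of controls carrying floxed genes and no Cre. These libraries were chosen by their labels and make up 15 of the 30 RNA-seq libraries, 7 from mKO mice (5 male, 2 female) and 8 from controls (3 male, 5 female). All came from C57BL/6J mice aged 3 to 4 months that had walked freely for 4 weeks. The other 15 libraries, 7 controls and 8 mKO of the same genotypes, strain and age, came from mice kept for 4 weeks with the hindlimbs unloaded and are used here only beside the ambulatory values. The labels do not name the promoter or type of Cre, and the controls carry none, so loss of AMPK and presence of the Cre transgene cannot be told apart. Each library has a code of its own, and the labels say no more about the animals, so p-values measure only the spread between these libraries.

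AMPK is a heterotrimer of a catalytic alpha, a scaffolding beta and a nucleotide-sensing gamma subunit. It is activated when ATP falls and phosphorylates enzymes and regulators of glucose uptake, fatty acid oxidation, lipid synthesis, autophagy and mitochondrial gene expression. The soleus is a postural muscle of slow and fast oxidative fibres, a tissue in which the kinase is known for its role in the response to contraction.

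The control libraries held 15.3 to 20.9 M counts each and the mKO libraries 13.0 to 18.5 M. Levels are TMM-normalised CPM, that is, counts scaled to the size of each library, and every difference is the log2 difference of mKO minus control from a model that includes sex, with its standard error. One library stood apart. The library labelled mKO replicate 2, a female, had 115.6 CPM of Myh7, the slow myosin heavy chain that defines soleus, against 5741 to 18091 CPM in controls and 6891 to 16581 CPM in the other 6 mKO libraries. The summed level of 10 fibre-defining genes was 9887 CPM in it, against 133605 to 319593 CPM in controls and 192451 to 289210 CPM in the other mKO. Its adipocyte markers summed to 19332 CPM, against 2748 to 5784 CPM in controls and 3058 to 6494 CPM in the other mKO, and its Schwann cell markers to 1597 CPM, against 57.1 to 615 CPM and 50.8 to 88.2 CPM. This library went against its tissue label in its fibre transcripts. The called genes and the lists are given with and without it, and the values of other genes are without it unless all libraries are named. Without it the mKO libraries were 5 male and 1 female, against 3 male and 5 female controls. The CPM ranges and medians, unlike the differences from the model, are not adjusted for sex. In these bulk libraries fewer cells of a type and less RNA per cell cannot be told apart.

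**Figure D1:**
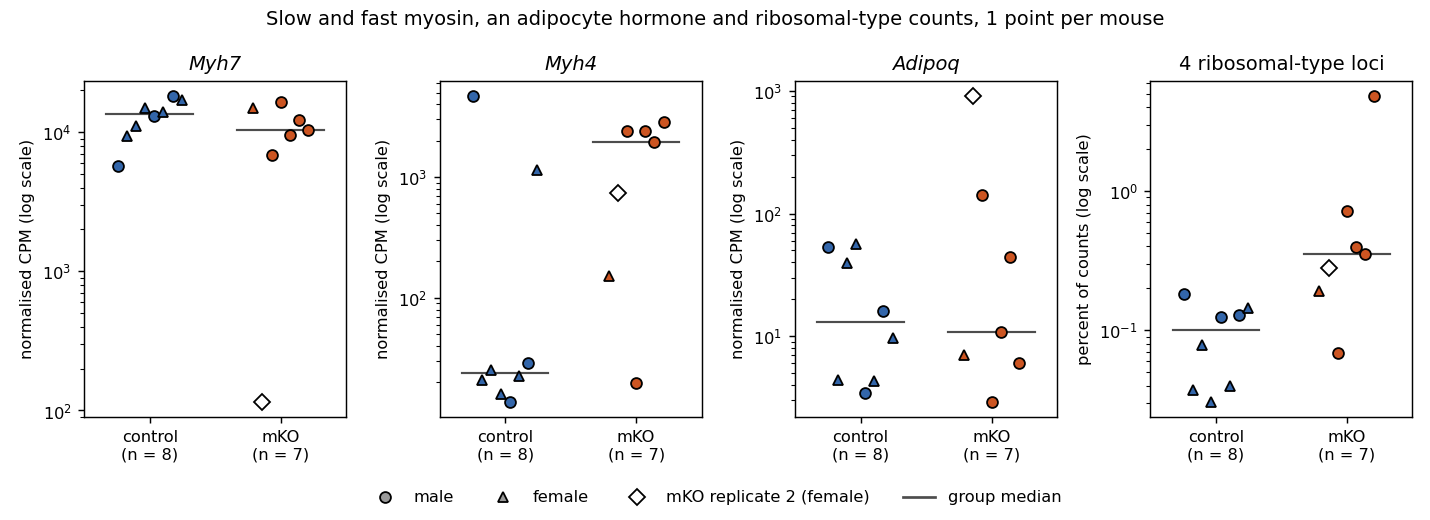
Levels of Myh7, Myh4 and Adipoq in normalised CPM and the share of counts on 4 ribosomal-type loci in percent, all on log scales, with 1 point per library, triangles for females and lines at group medians. The mKO replicate 2 (open diamond) sits at 115.6 CPM of Myh7 and 903 CPM of Adipoq, and mKO replicate 7 holds the highest ribosomal-type share, 4.80%.

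In weight-bearing soleus 3 genes differed between the genotypes at a Benjamini-Hochberg adjusted p below 0.05 in edgeR's quasi-likelihood test. They were Prkaa2, which fell, and Esr1 and Abat, which rose. These were 3 of 16932 genes tested (0.0177%), and the same 3 of 17055 (0.0176%) when mKO replicate 2 was left out. At an unadjusted p below 0.05 the count was 1291 genes (7.62%), 998 of them higher (5.89%) and 293 lower (1.73%) in mKO. Without mKO replicate 2 it was 365 (2.14%), 174 higher (1.02%) and 191 lower (1.12%), and 210 genes were in both sets. The median difference over all genes was 0.02 with that library and 0.01 without it. DESeq2 on the same counts called 9 genes (0.0532%) with all libraries and 6 (0.0352%) without mKO replicate 2, the same 3 among them each time. The 6 others with all libraries were Adamts1, the unnamed or uncharacterised genes E230013L22Rik, Gm43323, Gm15564 and ENSMUSG00000119584, and Lars2.

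**Figure D2:**
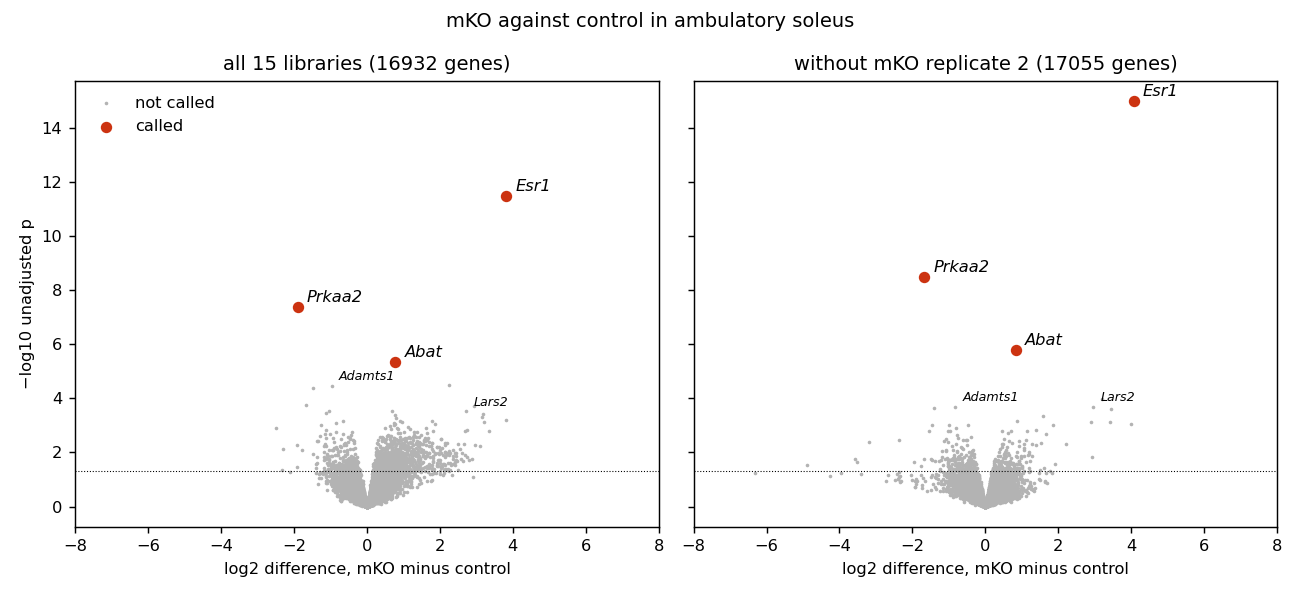
Log2 difference of mKO minus control (horizontal) against −log10 of the unadjusted p (vertical) for each gene tested, with all 15 libraries on the left and without mKO replicate 2 on the right. The red points are the called genes, Esr1, Prkaa2 and Abat in each panel. The dotted line marks the unadjusted threshold of 0.05, which 1291 genes passed with that library and 365 without it.

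Prkaa2 (ENSMUSG00000028518) encodes the alpha2 catalytic subunit, the main one in muscle fibres, and is 1 of the 2 deleted genes. Its level ran from 169.8 to 257.9 CPM in controls (median 210.2). In mKO it was 85.1, 15.0, 81.5, 37.8, 56.1, 63.5 and 82.9 CPM in replicates 1 to 7. The ranges did not overlap, and the lowest value belonged to the fibre-poor replicate 2. Prkaa2 fell by 1.89 ± 0.26 on the log2 scale (3.71-fold, adjusted p = 0.000367, edgeR). Without replicate 2 the means were 67.8 ± 18.8 CPM (SD, n = 6) in mKO and 213 ± 28.3 CPM (SD, n = 8) in controls, and it fell by 1.68 ± 0.20 (3.2-fold, edgeR adjusted p = 2.85e-05). Within males alone the log2 ratio of the mean levels was -1.76, from 3 control and 5 mKO libraries. The neighbouring genes Plpp3 and Usp24, in RefSeq's gene order, had differences of 0.04 ± 0.15 and -0.04 ± 0.18 with all libraries and of -0.12 ± 0.15 and 0.10 ± 0.16 without replicate 2.

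Prkaa1 (ENSMUSG00000050697), the alpha1 subunit and the other deleted gene, is also made in many cell types other than fibres. It ran from 16.5 to 24.9 CPM in controls (median 20.7). The mKO values were 11.8, 36.2, 17.9, 8.21, 17.4, 13.2 and 15.5 CPM in replicates 1 to 7. Replicate 2 was the highest of the 15 libraries, replicates 3 and 5 lay inside the control range, and the other 4 mKO libraries lay below it. The difference was -0.20 ± 0.18 with all libraries (adjusted p = 0.891, edgeR). Without replicate 2 it was -0.51 ± 0.16, with an unadjusted p of 0.00337 and an edgeR adjusted p of 1, so Prkaa1 did not pass the test either way. Counts over the whole gene do not show whether the remaining transcripts carry the deleted exons.

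The 5 regulatory subunits showed no called difference. Without replicate 2, the beta subunits Prkab1 and Prkab2 differed by 0.02 ± 0.11 and 0.23 ± 0.20, and the gamma subunits Prkag1 and Prkag2 by 0.02 ± 0.13 and -0.15 ± 0.19. Prkag3, the gamma subunit known from fast glycolytic fibres, ran from 5.47 to 23.4 CPM in controls (median 11.4) and from 14.1 to 24.7 CPM in the 6 mKO libraries (median 18.8). Its difference was 0.54 ± 0.25 at an unadjusted p of 0.0438 and an edgeR adjusted p of 1, and the ranges overlapped. Among controls Prkag3 averaged 9.37 CPM in females and 16.1 CPM in males, and within males its log2 ratio of means was 0.31. In replicate 2 the gamma2 gene Prkag2 stood at 51.8 CPM, against 12.3 to 16.1 CPM in controls, and Prkag3 at 3.21 CPM. With all libraries the differences of these 2 genes were 0.41 ± 0.25 and 0.31 ± 0.30. Of all 7 subunit genes, 1 was called, and the median difference was 0.06 with replicate 2 and 0.02 without it.

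Esr1 (ENSMUSG00000019768), which encodes oestrogen receptor alpha, had the largest difference among the called genes. It ran from 23.5 to 36.9 CPM in controls (median 26.4). Replicates 1 to 7 of the mKO held 457.6, 76.6, 260.3, 519.5, 347.2, 483.6 and 562.8 CPM. Every mKO library lay above every control, and replicate 2 was the lowest of the mKO. Esr1 rose by 3.81 ± 0.34 (14.1-fold, adjusted p = 5.71e-08, edgeR) with all libraries and by 4.06 ± 0.26 (16.7-fold, edgeR adjusted p = 1.76e-11) without replicate 2. The log2 ratio of the means was 3.91 in males and 3.28 in females, where 2 mKO libraries included replicate 2. Inducible Cre proteins are commonly built by fusing Cre to part of this receptor. The labels do not say which Cre was used, and counts over the whole gene cannot tell native Esr1 transcripts and a transgene carrying part of its sequence apart.

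None of the 4 tested genes around Esr1 in RefSeq's order was called. With all libraries Armt1 differed by -0.09 ± 0.14, Ccdc170 by -0.12 ± 0.29, Syne1 by -0.13 ± 0.15 and Myct1 by -0.60 ± 0.27 (unadjusted p = 0.0321, adjusted p = 0.628, edgeR). Without replicate 2 Myct1 differed by -0.40 ± 0.25. Of 15 tested genes in a list of oestrogen receptors and targets, 10 were higher in mKO without replicate 2, and Esr1 itself was the only 1 below an unadjusted p of 0.05. The list's median difference was 0.17, against 0.01 over all genes, and 0.11 with replicate 2. It ranged from 0.014 without mKO replicate 5 as well to 0.21 without mKO replicate 7 as well, so the distance from the median of all genes rested on single libraries. Nrip1, a receptor co-repressor, differed by 0.27 ± 0.19, Greb1, a classical oestrogen-induced gene, by -0.68 ± 0.51, and Igf1, a growth factor, by 0.34 ± 0.39. With replicate 2 included, Nrip1 and Igf1 had differences of 0.90 ± 0.27 and 0.94 ± 0.39. That library alone held 358 CPM of Nrip1 and 163 CPM of Igf1, and the highest control held 78.4 and 35.9 CPM.

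Abat (ENSMUSG00000057880) encodes 4-aminobutyrate aminotransferase, the mitochondrial enzyme that breaks down GABA. It ran from 9.21 to 16.1 CPM in controls (median 12.3). The mKO libraries held 23.8, 19.1, 16.7, 17.9, 21.7, 19.8 and 18.1 CPM in replicates 1 to 7. All mKO libraries lay above all controls, with the nearest pair at 16.1 and 16.7 CPM. Here the fibre-poor replicate 2 fell inside the range of the other mKO. Abat rose by 0.78 ± 0.14 (1.72-fold, adjusted p = 0.0255, edgeR) with all libraries and by 0.84 ± 0.14 (1.8-fold, edgeR adjusted p = 0.00921) without replicate 2, where the means were 19.7 ± 2.67 CPM (SD, n = 6) and 12.5 ± 2.02 CPM (SD, n = 8).

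The call on Abat was the least firm of the 3. With all libraries it was lost when sex was left out of the model (adjusted p = 0.543, edgeR) and when only ambulatory libraries were fitted (adjusted p = 0.063, edgeR), and Prkaa2 was lost in the latter fit too. It was also lost on leaving out any 1 of control replicates 1, 2, 3, 4, 7 or 8 or mKO replicates 5 or 6, with adjusted p from 0.0501 to 0.0986. Without mKO replicate 2 the call was lost when sex was left out, when the unexplained letter that ends each sample title was added as a covariate (adjusted p = 0.068, edgeR), and when mKO replicate 1 was left out as well. With all libraries its log2 ratio of means was 0.56, 0.91 and 0.50 within the title letters a, b and c, and 0.67 in females and 0.79 in males. Without mKO replicate 2 the ratio was 0.40 within letter c and 0.82 in females, each from 1 mKO library. Mettl22, Tmem186 and Pmm2, which neighbour Abat, had differences of -0.17 ± 0.25, -0.14 ± 0.14 and 0.09 ± 0.10 with all libraries.

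**Figure D3:**
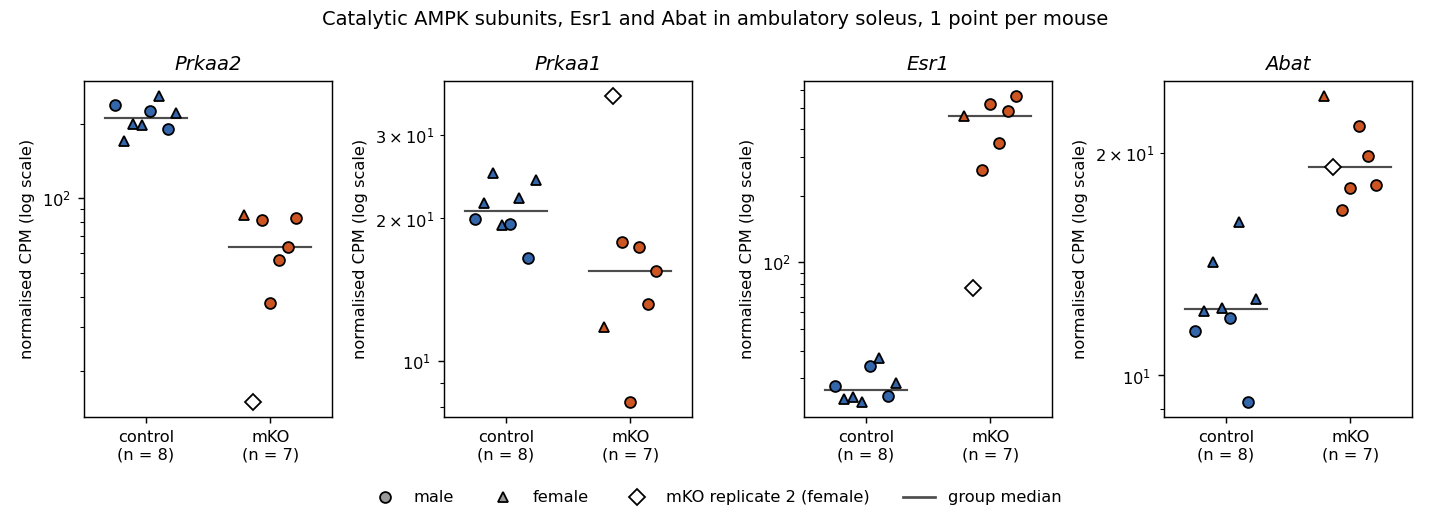
Normalised CPM on log scales of Prkaa2, Prkaa1, Esr1 and Abat in each ambulatory library, with triangles for females, an open diamond for mKO replicate 2 and lines at group medians. The mKO and control points do not overlap for Prkaa2, Esr1 and Abat, and they overlap for Prkaa1, where replicate 2 is the highest point at 36.2 CPM.

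Complete separation of the groups held for 6 genes with all libraries and for 11 without replicate 2. With this many genes tested some separate by chance, and the number to be had by chance was not computed. With all 15 libraries, 4 genes had every mKO value above every control value (0.0236% of genes tested), namely Esr1, Abat, Miip and Ccndbp1, and 2 had every value below (0.0118%), Prkaa2 and E230013L22Rik. The last, an uncharacterised transcript, ran from 0.935 to 1.96 CPM in controls and from 0.316 to 0.767 CPM in mKO, with a difference of -1.48 ± 0.31 (adjusted p = 0.12, edgeR). Miip and Ccndbp1 differed by 0.18 ± 0.09 and 0.21 ± 0.10 with all libraries (adjusted p = 0.677 and 0.645, edgeR). Without replicate 2 there were 5 above (0.0293%) and 6 below (0.0352%). All 6 genes of the first set were in the second. In the unloaded mice, 2 of them, Esr1 and Prkaa2, were separated in the same direction.

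Abat belonged to a list of 21 tested genes for the breakdown of GABA and of branched-chain amino acids. Of these, 19 were higher in mKO with replicate 2 and 19 without it, against 54.2% and 52.7% of all genes. The median difference was 0.18 with it and 0.14 without it, against 0.02 and 0.01 over all genes. Without replicate 2, 2 members were below an unadjusted p of 0.05, Abat and Bckdhb, and only Abat was called. Bckdhb, a subunit of the branched-chain ketoacid dehydrogenase, ran from 19.5 to 31.2 CPM in controls (median 26.5) and from 19.2 to 41.5 CPM in the 6 mKO libraries (median 31.6). Its difference was 0.34 ± 0.14 (unadjusted p = 0.0196, adjusted p = 1, edgeR), and the ranges overlapped. With all libraries it was 0.45 ± 0.14. Dbt, another subunit of that complex, differed by 0.29 ± 0.16.

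None of the genes through which AMPK is known to act, other than its own subunits, was called. Of 23 tested genes that encode AMPK substrates, 13 were higher in mKO without replicate 2, with a median of 0.01, and 0 of 23 were below an unadjusted p of 0.05. With replicate 2, 9 were higher, the median was -0.07, and 4 were below that p, all higher. Srebf1, the lipogenic transcription factor, differed by 0.32 ± 0.19 (0.64 ± 0.21 with all libraries), Tbc1d1, which restrains glucose transporter traffic, by 0.28 ± 0.22, and Ulk1, which starts autophagy, by 0.06 ± 0.17. Of 19 upstream and related kinases, 13 were higher, with a median of 0.04 and 0 below an unadjusted p of 0.05, and with replicate 2 the median was -0.01 with 9 higher. Pfkfb3, a glycolytic regulator and AMPK substrate, reached 416 CPM in replicate 2 against at most 70.7 CPM in controls, and its difference went from 1.37 ± 0.45 to 0.44 ± 0.38 when that library was left out.

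Genes of fuel use showed no called difference either. Slc2a4, the insulin-responsive glucose transporter, ran from 453.7 to 620.1 CPM in controls and from 358 to 629.8 CPM in the 6 mKO libraries, with a difference of -0.06 ± 0.16. Cpt1b, which admits fatty acids to mitochondria, ran from 61.3 to 100.2 CPM and from 55.1 to 112 CPM, with a difference of -0.05 ± 0.16. In replicate 2 these genes stood at 171 and 2.58 CPM, and with all libraries their differences were -0.24 ± 0.21 and -0.33 ± 0.35. Hk2, the muscle hexokinase, differed by -0.15 ± 0.22 and, with all libraries, by -0.37 ± 0.28. Over whole lists the medians without replicate 2 were 0.04 for 19 genes of glucose uptake and glycogen, 0.09 for 15 of glycolysis (13 higher in mKO), and -0.02 for 29 of fatty acid uptake and oxidation. With replicate 2 they were -0.06, -0.05 (4 higher) and -0.14. No member of these lists was called.

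The list of lipid synthesis genes depended on replicate 2. Of 20 genes of lipid and sterol synthesis, 18 were higher in mKO with all libraries, 9 of them at an unadjusted p below 0.05, and the median was 0.69. Without replicate 2, 14 were higher, 0 were below that p, and the median was 0.04. The 10 adipocyte markers had medians of 2.11 and 0.51 in the same fits. The second of these was set by single libraries, at -0.27 without mKO replicate 3 as well and 1.35 without control replicate 1 as well. Adipoq, the adipocyte hormone adiponectin, was at 903 CPM in replicate 2, from 2.92 to 142 CPM in the other mKO and from 3.43 to 56.5 CPM in controls.

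Most genes of oxidative phosphorylation had small negative differences, none of them called, while the median summed levels were not lower in the 6 mKO libraries than in controls. Without replicate 2, 43 of 45 nuclear genes of oxidative phosphorylation were lower, with a median of -0.14, and 11 of 13 mitochondrially encoded transcripts were lower, with a median of -0.19. With replicate 2 all 45 and all 13 were lower, and the medians were -0.33 and -0.42. The summed nuclear genes had a median of 14337 CPM (11199 to 19301) in controls and 14626 CPM (10098 to 16217) in the 6 mKO libraries. The summed encoded transcripts had medians of 47415 CPM (21118 to 79914) and 47603 CPM (7585 to 69348). Of all ambulatory libraries, mKO replicate 4 had the lowest share of counts on protein-coding mitochondrial genes, 0.741%. The encoded transcripts' median without replicate 2 ranged from -0.37 without control replicate 7 to 0.04 without control replicate 1, the library with the largest share of counts on protein-coding mitochondrial genes (7.54%). The nuclear median stayed between -0.23 and -0.08 on leaving out each of the 14 libraries in turn.

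Cox8b, a muscle form of a cytochrome oxidase subunit, was the nuclear member with the smallest p. It ran from 222 to 412 CPM in controls (median 318) and from 196 to 330.1 CPM in the 6 mKO libraries (median 267), with a difference of -0.39 ± 0.19 (unadjusted p = 0.0458, adjusted p = 1, edgeR). With all libraries it was -0.64 ± 0.30. Cox6c and Ndufa1 differed by -0.41 ± 0.21 and -0.36 ± 0.19. The 16 genes of the PGC-1, ERR and PPAR regulators had a median of 0.04 without replicate 2 and -0.10 with it, and 0 below an unadjusted p of 0.05 in the former fit, and Ppargc1a, the coactivator PGC-1 alpha, differed by -0.06 ± 0.41. The 24 genes of the tricarboxylic acid cycle had a median of -0.0031 with 11 higher, after -0.17 with 1 higher when replicate 2 was included. The 17 genes of mitochondrial dynamics and mitophagy had a median of 0.05 without replicate 2 and -0.05 with it.

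Fast-fibre genes were spread widely among the controls. Pvalb, the calcium buffer parvalbumin of fast fibres, ran from 59.2 to 825.4 CPM in controls (median 154) and from 373 to 726.8 CPM in the 6 mKO libraries (median 453). The highest of all was control replicate 1, and the other 7 controls, at most 262 CPM, lay below those 6 mKO libraries. Its difference was 0.87 ± 0.40 without replicate 2 (unadjusted p = 0.0361, adjusted p = 1, edgeR). On leaving out each other library in turn, it ranged from 0.72 without control replicate 7 to 1.62 without control replicate 1. In the latter fit the edgeR adjusted p was 0.185. Actn3, the fast-fibre alpha-actinin, differed by 0.95 ± 0.54. Over the same fits it ranged from 0.78 without control replicate 7 to 2.04 without control replicate 1. With all libraries the differences of Pvalb and Actn3 were 0.70 ± 0.40 and 0.80 ± 0.52.

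The myosin heavy chains did not pass the test. Myh4, the fastest isoform, was at 4658 CPM in control replicate 1, 1147 CPM in control replicate 8 and 13.8 to 28.6 CPM in the other 6 controls. In mKO it was 150.6, 736, 2405, 19.7, 2392, 1934 and 2861 CPM in replicates 1 to 7. The groups overlapped, and the difference in the model with sex was 0.78 ± 1.13 without mKO replicate 2 and 0.80 ± 1.01 with it. Leaving out control replicate 5 besides mKO replicate 2 gave a Myh4 difference of 0.54, the lowest of 14 such fits. Leaving out control replicate 1, the library with the most Myh4, gave the highest, 3.35 ± 1.35 (unadjusted p = 0.0201, adjusted p = 1, edgeR). Myh1, Myh2 and Myh7, of fast, fast oxidative and slow fibres, differed by 0.60 ± 0.46, -0.23 ± 0.48 and 0.02 ± 0.30. As lists, 14 fast-fibre genes had a median of 0.25 (10 higher) and 12 slow-fibre genes one of -0.03 (4 higher), after -0.0041 (7 higher) and -0.31 (1 higher) with replicate 2. Myl6b, a slow myosin light chain, differed by 1.13 ± 0.47 (unadjusted p = 0.0234, adjusted p = 1, edgeR) and by 0.82 ± 0.56 with all libraries.

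Calcium handling genes leaned upward without replicate 2, with 16 of 19 higher and a median of 0.22, after 7 of 19 and -0.04 with it. This list shares Atp2a1, Casq1 and Pvalb with the fast-fibre list and Atp2a2, Casq2 and Pln with the slow-fibre list. Sln, sarcolipin, an inhibitor of the sarcoplasmic calcium pump, differed by 0.63 ± 0.29 (unadjusted p = 0.0382). Pln, phospholamban, the pump's inhibitor in slow fibres, differed by -0.83 ± 0.39 (unadjusted p = 0.0407). With all libraries these were 0.32 ± 0.46 and -1.10 ± 0.41. Neither passed edgeR's adjustment, with an adjusted p of 1 for each, and Pln was below 7 CPM in every ambulatory library.

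Immediate early genes, which neurons and muscle switch on within minutes of a stimulus, had mostly negative differences, none of them called. Of 19 tested, 15 were lower without replicate 2 and 16 with it, and the medians were -0.32 and -0.28. Egr1, a zinc-finger transcription factor, ran from 6.27 to 42.9 CPM in controls (median 13.1) and from 5.69 to 14.8 CPM in the 6 mKO libraries (median 7.26), with a difference of -1.18 ± 0.42 (unadjusted p = 0.00897, adjusted p = 1, edgeR). Btg2, an antiproliferative gene of the same class, ran from 36.0 to 93.8 CPM and from 39.1 to 48.9 CPM, with a difference of -0.53 ± 0.17. With all libraries these were -1.29 ± 0.39 and -0.66 ± 0.18. The differences were not the same within the letters that end the sample titles. Without replicate 2 the log2 ratio of means for Egr1 was -1.82, -0.15 and -1.50 within letters a, b and c, and for Btg2 it was -0.78, 0.23 and -0.97, with 1 mKO library under c. Fos and Klf4 differed by -1.01 ± 0.48 and -0.44 ± 0.19, and these 4 were the members below an unadjusted p of 0.05. The mKO and control ranges overlapped for each of the 4. In the unloaded mice the list's median was 0.23 with 14 of 19 higher, against 52.9% of all genes. In the fit with all libraries, 4 members had an interaction of genotype and unloading at an unadjusted p below 0.05, none of them called.

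Vessel markers had mostly negative differences, none of them called. All 12 endothelial markers were lower in mKO with and without replicate 2, with medians of -0.27 and -0.21, and 8 of 9 pericyte and smooth muscle markers were lower, with medians of -0.25 and -0.17. Vwf, the clotting factor of endothelium, ran from 36.5 to 106 CPM in controls (median 80.0) and from 40.3 to 69.0 CPM in the 6 mKO libraries (median 58.7), with a difference of -0.54 ± 0.20 (unadjusted p = 0.0121, adjusted p = 1, edgeR). Pecam1 and Kdr, an adhesion protein and a VEGF receptor, differed by -0.22 ± 0.11 and -0.30 ± 0.18. With all libraries the differences of Vwf, Pecam1 and Kdr were -0.45 ± 0.19, -0.23 ± 0.11 and -0.35 ± 0.17. The summed endothelial markers spanned 634 to 942 CPM in controls and 657 to 775 CPM in the 6 mKO libraries, so the mKO range lay inside the control range.

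Of the 9 pericyte and smooth muscle markers, 3 were below an unadjusted p of 0.05 in each fit, and none was called. Cnn1, calponin, ran from 0.464 to 1.37 CPM in controls (median 1.10) and from 0.200 to 0.834 CPM in the 6 mKO libraries (median 0.388), with a difference of -1.47 ± 0.41 (unadjusted p = 0.000971, adjusted p = 0.981, edgeR). Myh11 and Acta2, smooth muscle myosin and actin, differed by -0.41 ± 0.17 and -0.47 ± 0.21, and Tagln, transgelin, by -0.33 ± 0.20. With all libraries Cnn1 differed by -1.68 ± 0.40 and Tagln by -0.01 ± 0.22. Of 12 angiogenic signals, 10 were lower with a median of -0.22 (8 lower and -0.15 with replicate 2), and Vegfa, the main one from fibres, differed by -0.28 ± 0.21. In unloaded mice the medians of the endothelial and pericyte lists were -0.02 and 0.11. With all libraries, replicate 2 among them, Cnn1, Myh11 and Acta2 had edgeR interaction p-values of 0.000917, 0.0081 and 0.0135 before adjustment. No gene passed adjustment for the interaction.

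Adamts1 (ENSMUSG00000022893), a secreted metalloprotease, was the uncalled gene with an official symbol and the smallest p when all libraries were used. It ran from 53.6 to 97.5 CPM in controls (median 78.4). In mKO it was 43.2, 22.6, 41.1, 43.7, 55.2, 45.6 and 42.5 CPM in replicates 1 to 7. Only mKO replicate 5 reached into the control range, above control replicate 7. The difference was -0.97 ± 0.20 (adjusted p = 0.115 in edgeR, 0.00451 in DESeq2) and -0.83 ± 0.20 without replicate 2 (adjusted p = 0.534 in edgeR, 0.0529 in DESeq2). In the unloaded mice it was -0.01 ± 0.19, with an edgeR interaction p of 0.00195 before adjustment in the fit with all libraries.

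Several other genes came near the head of the ranking, and the edgeR adjusted p was at least 0.534 for each with all libraries and 0.856 without replicate 2. Hivep3, a zinc-finger regulator, ran from 13.5 to 16.5 CPM in controls and from 9.65 to 15.0 CPM in the 6 mKO libraries, with a difference of -0.48 ± 0.13. Vash2, a vasohibin, ran from 0.81 to 2.07 CPM and from 1.79 to 5.83 CPM, with a difference of 1.58 ± 0.40, and was 0.362 CPM in replicate 2. Tes, testin, differed by -0.82 ± 0.23, Snx24, a sorting nexin, by 0.44 ± 0.13, and Tacc3, a spindle protein, by 0.72 ± 0.21. Slc15a5 differed by -1.55 ± 0.45 in the model with sex, although the medians were 1.10 CPM in controls and 1.75 CPM in mKO.

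Other genes had larger differences with replicate 2 than without it. Slc19a1, the folate carrier, was at 17.8 CPM there against 3.57 to 4.73 CPM in controls, and its difference went from 0.81 ± 0.21 to 0.39 ± 0.16. Pigl, of the GPI anchor pathway, went from 0.69 ± 0.17 to 0.46 ± 0.15, and Klhl13, a ubiquitin ligase adaptor, from 0.78 ± 0.20 to 0.64 ± 0.20. All of them had values in replicate 2 above every other ambulatory library.

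A set of 4 loci, put together as ribosomal-type with earlier results known, had higher values in mKO, led by 1 library. Lars2, a mitochondrial leucyl-tRNA synthetase gene at which reads from ribosomal RNA can be counted, ran from 32.0 to 113.5 CPM in controls (median 75.1). Among the mKO it was 144, 109, 68.5, 419.6, 219, 252 and 2522 CPM in replicates 1 to 7. Replicate 7 stood far above the rest, and replicate 3 lay inside the control range. The difference was 2.72 ± 0.66 (adjusted p = 0.451, edgeR) and 2.95 ± 0.68 without replicate 2 (adjusted p = 0.534, edgeR), and 1.59 with replicate 7 left out as well. DESeq2 called Lars2, Gm15564 and ENSMUSG00000119584 in both fits. Together with Mir6236 these loci took 0.0306 to 0.183% of counts in controls (median 0.101%) and 0.0683 to 4.80% in mKO (median 0.353%), against 0.0382 to 0.176% in unloaded controls and 0.0313 to 0.445% in unloaded mKO. Most of the share in each library lay on ENSMUSG00000119584, which has no symbol. It took 4.55 of the 4.80% in mKO replicate 7 and 0.171 of the 0.183% in control replicate 1. The difference of mt-Rnr1, a mitochondrial ribosomal RNA, was 1.23 ± 0.52 with all libraries and 1.51 ± 0.49 without replicate 2. It was 0.38 with replicate 7 left out as well. The part of ribosomal RNA content in other results was not tested.

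For 8 further lists the median without replicate 2 lay between -0.02 and 0.07. Medians were -0.01 for 22 genes of autophagy and lysosome, 0.03 for 15 atrophy ligases and FOXO genes, 0.07 for 20 mTORC1 genes, 0.03 for 17 of creatine kinase and adenine nucleotides, -0.02 for 15 of NAD synthesis and sirtuins, -0.0019 for 19 antioxidant genes, 0.03 for 18 heat shock genes and 0.03 for 15 of the integrated stress response. No member of these lists was called or was below an unadjusted p of 0.05 in that fit. Trim63, the muscle ubiquitin ligase MuRF1, differed by -0.43 ± 0.31, Sesn1, a sestrin that restrains mTORC1, by -0.43 ± 0.23, Ckmt2, mitochondrial creatine kinase, by -0.33 ± 0.20, and Cryab, a small chaperone, by -0.36 ± 0.22. With replicate 2 included the medians of the 8 lists were -0.03, 0.05, 0.02, -0.07, 0.01, -0.05, -0.18 and -0.09 in the same order, and the heat shock list had 1 of 18 genes higher. Clock genes were higher in 13 of 17 cases with a median of 0.21 (12 and 0.07 with replicate 2), with Tef and Per3 at 0.30 ± 0.16 and 0.38 ± 0.25. Neuromuscular junction genes had a median of -0.11 over 15 (-0.34 with replicate 2), and regeneration genes one of 0.23 over 10 (-0.02 with it), with Actc1, cardiac actin, at 0.71 ± 0.33 (unadjusted p = 0.0405). On leaving out 1 more library the clock median ranged from 0.07 to 0.29 and the regeneration median from 0.06 to 0.37.

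**Figure D4:**
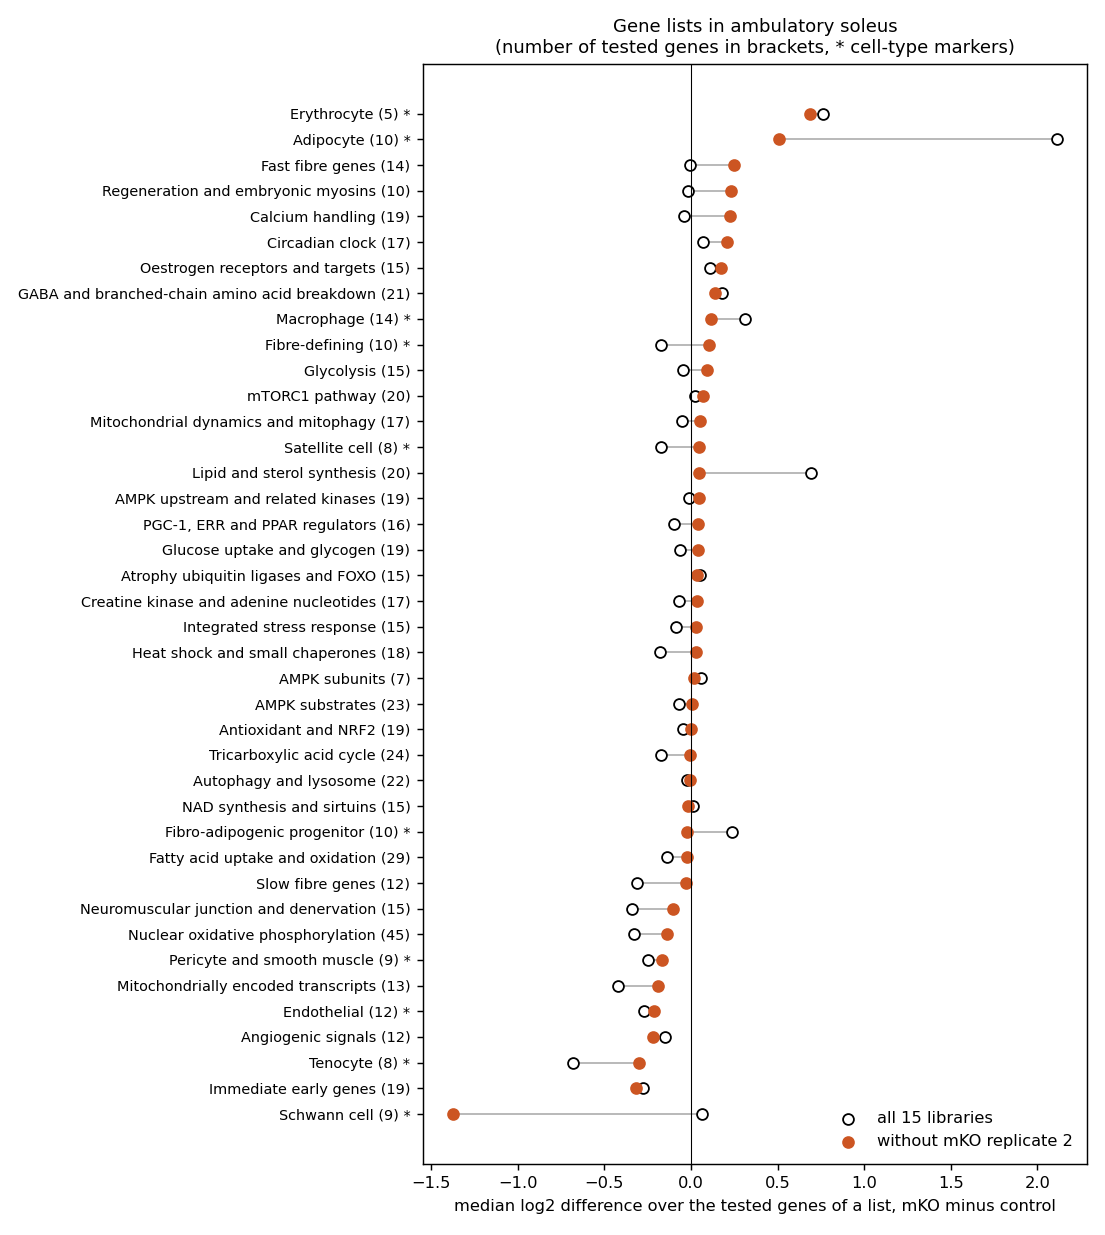
Median log2 difference of mKO minus control (horizontal) over the tested genes of each list, with all 15 libraries (open) and without mKO replicate 2 (filled). The adipocyte median moves from 2.11 to 0.51, the lipid synthesis median from 0.69 to 0.04 and the Schwann cell median from 0.06 to -1.37.

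Markers of other cell types also varied without replicate 2, with no member called. Schwann cell markers, with a median of -1.37 over 9 genes, summed to between 57.1 and 615 CPM in controls and 50.8 and 88.2 CPM in the 6 mKO libraries. The median sums were 88.3 and 62.0 CPM, and the list's median was -0.58 when control replicate 1 was left out as well. The 8 tenocyte markers had a median of -0.30 and sums of 191 to 2429 CPM and 94.7 to 2873 CPM. Macrophage markers had a median of 0.12 over 14, fibro-adipogenic progenitor markers one of -0.02 over 10, satellite cell markers one of 0.05 over 8, erythrocyte markers one of 0.68 over 5 and fibre-defining genes one of 0.10 over 10. With replicate 2 the medians were -0.68 for tenocyte, 0.31 for macrophage, 0.23 for progenitor, -0.17 for satellite cell, 0.76 for erythrocyte and -0.17 for fibre-defining genes. On leaving out 1 more library besides replicate 2, the tenocyte median ranged from -0.81 to -0.01, the macrophage median from -0.03 to 0.35 and the erythrocyte median from 0.32 to 0.93. Of the lymphocyte and neutrophil list, 2 genes were tested, and both were higher. The part of these cell types in the vessel, fast-fibre and immediate early differences was not tested.

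The genotype effect in the unloaded mice, which share no library with the ambulatory ones, named the same 3 genes out of 16932 tested (0.0177%). There Esr1 rose by 3.10 ± 0.33, Prkaa2 fell by 1.64 ± 0.24 and Abat rose by 0.77 ± 0.14, all called by edgeR. Prkaa1 differed by -0.60 ± 0.18 and was not called. No gene passed adjustment for the interaction of genotype and unloading with edgeR or with DESeq2, while 410 genes (2.42%) had an unadjusted edgeR p below 0.05, and 218 (1.28%) without mKO replicate 2. For Esr1 the interaction p before adjustment was 0.122 with all libraries and 0.00697 without replicate 2, with an edgeR adjusted p of 1. For Abat it was 0.956 with all libraries and 0.686 without replicate 2, and for Prkaa2 0.473 and 0.925.

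The 20 genes with the smallest p in ambulatory mice without replicate 2 were taken among those with a mean of at least 1 CPM. Of these, 19 had the same sign in the unloaded mice and 6 were below an unadjusted p of 0.05 there. Esr1, Prkaa2 and Abat, called in both states, were among the 20 and among the 6. The share below that p was 1.78% of all 16932 genes tested, with no minimum CPM. Both contrasts took their spread and sex term from fits that share libraries. Of the first 50, 40 had the same sign and 9 were below that p, and of the first 100 these counts were 72 and 12. The same sign held for 59.8% of all genes tested in both fits with a mean of at least 1 CPM. Hivep3 differed by -0.31 ± 0.12 in unloaded mice, and Vash2, Snx24 and Tacc3 by 0.62 ± 0.45, 0.24 ± 0.16 and 0.37 ± 0.19.

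**Figure D5:**
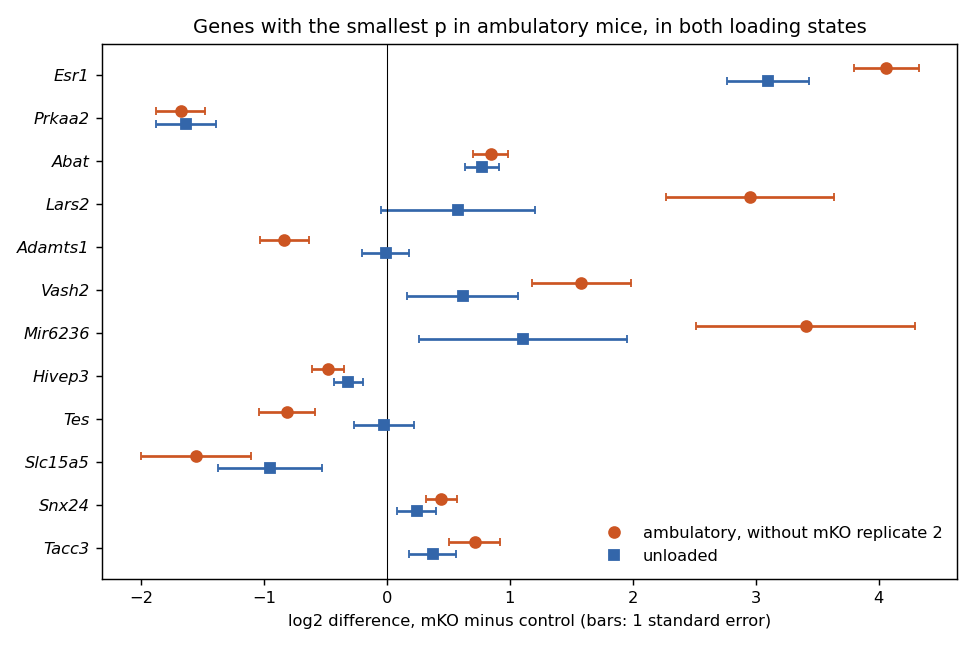
Log2 difference of mKO minus control, with bars of 1 standard error, in ambulatory mice without mKO replicate 2 (circles) and in unloaded mice (squares) for the 12 named genes with the smallest p in the former. Esr1, Prkaa2 and Abat lie on the same side of 0 in both states, and Adamts1 lies at -0.83 in ambulatory and -0.01 in unloaded mice.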

How the data were processed

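The authors deposited unnormalised counts for each Ensembl gene in 30 libraries of total RNA. Per the submitters' processing notes, the tools were STAR 2.7.9a, cutadapt 1.16, DESeq2 1.34.0 and featureCounts 1.6.3, with builds GRCm39 and mm39. Strand setting, annotation release and filters were not given in the sources used here, and overlapping or antisense genes may share reads. The protocol texts speak of people and myotubes and were not used beyond the directional library kit. Symbols were found for 52073 of 56980 genes. Gene order came from RefSeq on GRCm38.p6, and no positions are given, since the builds differ.

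All 30 libraries were fitted in edgeR 4.0.16 (R 4.3.3) with TMM, filterByExpr, a term for each of 4 groups and a term for sex, robust quasi-likelihood dispersion and Benjamini-Hochberg adjustment over all genes tested. The fit was repeated on 29 libraries without ambulatory mKO replicate 2. A gene was called at an adjusted p below 0.05. Values after ± are standard errors beside log2 differences and standard deviations beside mean CPM. Folds come from the model. Log2 ratios within sexes and title letters are of mean CPM. The sex shown by the data matched the label in 30 libraries, and no 2 libraries of a group were as alike as duplicates. The procedure was tested on simulated counts, which held no sex effect and no fibre-poor library.

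Groups, the comparison, 41 gene lists (30 of pathways, 11 of cell-type markers) and the genes followed were chosen with earlier results of these data known. Lists are described by counts and medians, without a test. Named genes were the 7 AMPK subunits, called genes, the 12 of smallest p in each fit that had a symbol and averaged 1 CPM or more, genes called by DESeq2 1.42.0, in each list up to 4 members by p and others needed to report an uncalled result, up to 2 neighbours on each side of Esr1, Abat, Prkaa1 and Prkaa2, the myosin heavy chains and Adipoq. Not every gene that this rule names is reported here. Genes whose groups did not overlap were named after their values were seen. Alternatives were median-of-ratios size factors, DESeq2, limma 3.58.1 voom with quality weights, no filter, a minimum mean of 1 CPM, a model without sex, a term for the title letter, ambulatory libraries only, and leaving out each library.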

Additional observations from a re-analysis of the deposited data

Results flagged for a closer look

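Each of 19 measures was looked at in both ambulatory groups, and in 9 of the 38 group and measure pairs the highest or lowest library lay far from the nearest other for the range of its group (Dixon's 95% limit). Chance flags about 1 in 20 groups, and the measures are not independent of each other. Of the 9, 5 lay in mKO replicate 2, which was highest in Prkaa1 (36.2 CPM), Prkag2 (51.8 CPM) and Adipoq (903 CPM) and lowest in Adamts1 (22.6 CPM) and Myh2 (299 CPM). Control replicate 1 was highest in Prkag3 (23.4 CPM) and in Myh4 (4658 CPM). The mKO replicate 7 was highest in Lars2 (2522 CPM) and in the share of counts on ribosomal-type loci (4.80%).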

How the results depend on the processing

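The number of called ambulatory genes was 3 with edgeR, 9 with DESeq2 and 1 with only the ambulatory libraries in the fit, where Esr1 remained. Leaving out 1 library at a time gave 2 to 5. Without mKO replicate 2 it was 3 with edgeR and 6 with DESeq2, and leaving out each other library gave 2 to 4. Without mKO replicate 1 but with replicate 2, Gm43323 and E230013L22Rik were called as well, 5 genes in all. The cause was not tested. Esr1 was called in each of these fits, and Prkaa2 in each but the ambulatory fit with all 15 libraries. Sex left out or no low-count filter left 2 genes called in the unloaded mice, Esr1 and Prkaa2.
Among genes with no call, the sign of the difference reversed in a few cases. With the title letter as covariate it was -0.14 for Prkab2, -0.17 for Myh1 and -0.062 for Tbc1d1. With limma voom and library weights it was 0.042 for Prkag1, -0.21 for Prkag2, 0.014 for Myh7, 0.023 for Slc2a4 and 0.012 for Ulk1. Over the fits that each left out 1 library, the differences ranged from -0.019 to 0.23 for Prkab2, -0.17 to 0.018 for Prkag1, -0.15 to 0.56 for Prkag2, -0.44 to 0.018 for Myh7, -0.028 to 0.60 for Myh1, -0.92 to 0.15 for Ppargc1a and -0.29 to 0.064 for Ulk1, with all 15 libraries as the starting point.
No paired analysis was possible because the replicate numbers follow accession order and the labels give the groups no shared number. Genes below about 1 CPM, such as Cnn1, rest on few counts at these depths.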
